A study of Homo sapiens with 4 samples.

Results

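The NR4A nuclear receptors are 3 genes, NR4A1, NR4A2 and NR4A3, described here in human SEM leukaemia cells taken from the brain and from the spleen of transplanted mice. They were found by symbol through GENCODE release 44 among the 65217 human gene identifiers of the deposited count table, and all 3 had a row. They were chosen by their gene counts, because all 3 rise in brain, so their brain and spleen levels are given as a description, with no test. No level was used as a threshold.

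The NR4A proteins are orphan members of the nuclear receptor superfamily: they bind DNA and act as transcription factors without a known classical hormone ligand. Their activity follows mainly from how much of them is made, and their genes are immediate early genes, switched on within a short time by calcium, cAMP, growth factor or antigen receptor signals. They bind the NBRE, an extended receptor site, as single molecules, and NR4A1 and NR4A2 also pair with the retinoid X receptors. In lymphocytes NR4A1 is widely used as a reporter of antigen receptor signalling, and in mice the joint loss of the NR4A1 and NR4A3 genes leads to acute myeloid leukaemia.

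SEM is a long-established line of B-lineage acute lymphoblastic leukaemia whose t(4;11) translocation makes the KMT2A-AFF1 (MLL-AF4) fusion. Cells were transplanted into immunodeficient mice of 6 to 10 weeks, whose strain is not given in the sources used here. One group is SEM cells retrieved from brain (leptomeninges in the protocol) and the other is SEM cells retrieved from spleen, with 2 libraries each. Each library combined the RNA of 5 mice, from cells enriched on a Ficoll gradient and checked for purity by flow cytometry, and replicate 1 and replicate 2 are independent occasions of the experiment. All libraries thus come from 1 cell line and 1 kind of host, and pooling leaves differences between mice unmeasured.

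The gene counts summed to between 26266136 and 36913437 per library, and levels are given as CPM, counts scaled to library size. The floor used for a count of 0, 3 counts, equalled 0.0813 to 0.114 CPM. All 11 markers listed for B-cell precursor leukaemia passed the filter on low counts, among them PAX5 and DNTT. Of these CD22 was called higher in brain and CD34 lower (18.2% called, against 2.02% of all tested genes in either direction). CD3D, CD2, FCGR3A, S100A8, S100A9, SNAP25 and AHSP were at 0 counts in all libraries. Not all listed markers of other cells were low: the T-cell list held TRAC at 103 to 138 CPM, and the endothelial and stromal list held PDGFRB (142 to 174 CPM) and PECAM1 (72.4 and 49.7 CPM in brain, 33.4 and 29.9 CPM in spleen), with 0 of either list called. The summed level of the 11 myeloid and microglial markers was 61.5 CPM in brain replicate 1, 44.1 in brain replicate 2, 70.6 in spleen replicate 1 and 63.3 in replicate 2 of spleen. Among them CSF1R stood at 22.9 to 30.3 CPM, AIF1 at 14.1 to 25.2 CPM and TMEM119 at 2.58 to 11.7 CPM. Of the 11 markers 6 were tested and 0 called. For the 10 neural and glial markers the sums were, in the same order, 180, 155, 117 and 106 CPM, nearly all of it SYT1 and MBP, with 2 tested and 0 called (edgeR, adjusted p under 0.05). SYT1 had 48.1 and 37.4 CPM in brain and 24.3 and 16.3 CPM in spleen, without overlap of the sites. MBP had 132 and 117 CPM in brain and 92.6 and 89.4 CPM in spleen, again without overlap. GFAP, MOG and RBFOX3, other markers of astrocytes, oligodendrocytes and neurons, were each under 0.1 mean CPM at both sites. AQP4 had means of 0.100 CPM in brain and 0.166 CPM in spleen. Mouse transcripts took 2.24% and 1.45% of the estimated counts in brain replicates 1 and 2, and 4.31% and 6.32% in spleen replicates 1 and 2. Between sites, NR4A levels were thus high where the mouse share was low. Within brain all 3 genes were higher in replicate 1, which had the higher mouse share. The part of these sums and shares in the NR4A levels was not tested.

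NR4A1 (ENSG00000123358, also called NUR77; chromosome 12, 52022832 to 52059507 on GRCh38, plus strand, protein-coding) was nearly silent in spleen. It had 184 counts in brain replicate 1, 126 in brain replicate 2, 11 in spleen replicate 1 and 7 in spleen replicate 2. With library scaling by TMM factors the levels were 4.98 and 3.69 CPM in brain and 0.334 and 0.277 CPM in spleen. Both brain libraries lay above both spleen libraries, and the lowest brain level was 11.1 times the highest spleen level. The group means were 4.33 ± 0.909 CPM in brain and 0.305 ± 0.0400 CPM in spleen (SD, n = 2), and the log2 fold change of brain over spleen was 3.80 ± 0.36 (SE from edgeR). Since the 18 spleen counts limit the ratio, its 95% exact interval was wide: 8.77 to 24.1 around a CPM ratio of 14.1, for counting error only. These are bulk libraries, in which a change in the number of cells that make the RNA and a change in RNA per cell cannot be told apart.

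NR4A2 (ENSG00000153234, NURR1; chromosome 2, 156324437 to 156342348, minus strand, protein-coding), best known for its part in the formation of dopamine neurons, had the most reads of the 3 at both sites. It had 541 and 366 counts in brain replicates 1 and 2 and 151 and 91 counts in spleen replicates 1 and 2. The levels were 14.6 and 10.7 CPM in brain and 4.58 and 3.60 CPM in spleen. Unlike NR4A1 it was well above the count floor in spleen, and again the sites did not overlap. The means were 12.7 ± 2.77 and 4.09 ± 0.692 CPM (SD, n = 2), and the log2 fold change was 1.63 ± 0.25 (SE). The CPM ratio was 3.07, with a 95% exact counting interval of 2.66 to 3.55 for counting error only.

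NR4A3 (ENSG00000119508, NOR1; chromosome 9, 99821855 to 99866891, plus strand, protein-coding) was the rarest. Its counts were 62 and 36 in brain replicates 1 and 2, and 3 and 5 in spleen replicates 1 and 2. The levels were 1.68 and 1.05 CPM in brain and 0.0910 and 0.198 CPM in spleen, where replicate 1 stood at the 3-count floor. The sites did not overlap, but the spleen level rests on 8 counts in all. The log2 fold change was 3.26 ± 0.54 (SE), and the CPM ratio of 10.0 had a 95% exact counting interval of 4.89 to 23.9 for counting error only.

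**Figure D1:**
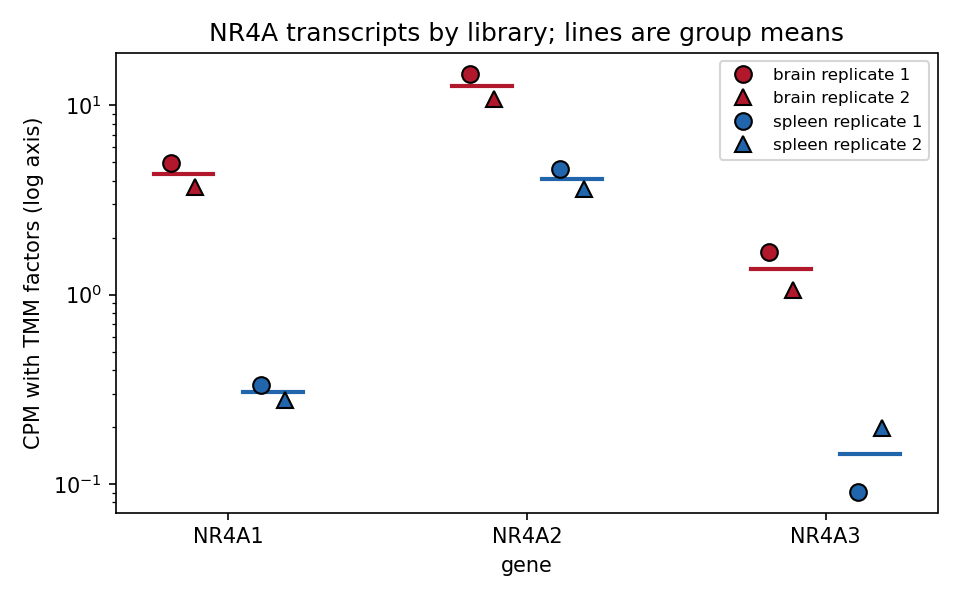
Levels of NR4A1, NR4A2 and NR4A3 in each library, in CPM with TMM factors on a log axis; circles are replicate 1, triangles replicate 2, and lines the group means. For every gene both brain libraries lie above both spleen libraries, with the widest gap for NR4A1 (lowest brain level 3.69 CPM, highest spleen level 0.334 CPM).

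Of 17075 genes tested in the whole table, 279 (1.63%) were called higher in brain by edgeR with an adjusted p under 0.05, and the 3 NR4A genes were among them. Calls in either direction made up 2.02% of tested genes. In 30.2% of tested genes both brain libraries lay above both spleen libraries, and in 57% the sites did not overlap in either direction. Nothing is read from the members' calls, since the same contrast chose them. By size of the log2 fold change NR4A1 stood at place 31, NR4A3 at 45 and NR4A2 at 319 among the 17075, whose median was 0.04.

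The occasions of the experiment gave like ratios for NR4A1 and NR4A2, while those for NR4A3 lay further apart and rest on few spleen counts. Within replicate number 1 the brain to spleen ratio of CPM was 14.9 for NR4A1, 3.19 for NR4A2 and 18.4 for NR4A3. Within number 2 it was 13.3, 2.97 and 5.33. Both NR4A3 ratios lay inside the counting interval of its pooled ratio, 4.89 to 23.9, which does not test a difference between occasions. In brain, replicate 1 was above replicate 2 for all 3 genes, by 0.43, 0.45 and 0.67 on the log2 scale for NR4A1, NR4A2 and NR4A3. In spleen, replicate 1 was above replicate 2 for NR4A1 and NR4A2 and below it for NR4A3, which had 3 and 5 counts there.

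Reads per gene cannot be compared between genes of unequal length, so the make-up of the family was taken from TPM, the authors' level per transcript length, summed over a gene's transcripts. NR4A2 led at both sites. It held 66.6% and 63.6% of the summed NR4A TPM in brain replicates 1 and 2, and 92.3% and 88.6% in spleen replicates 1 and 2. The share of NR4A1 was 28.7% and 32.8% in brain against 6.67% and 8.48% in spleen. NR4A3 gave 4.70% and 3.64% in brain against 1.08% and 2.94% in spleen. The family sum was 10.1 and 7.86 TPM in brain and 2.16 and 1.53 TPM in spleen. Cells from spleen thus held mostly NR4A2 among the 3, and cells from brain held NR4A2 with NR4A1 next; NR4A3 was the smallest part in every library.

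Transcripts within a gene did not enter the choice of members. The 3 genes had 36 GENCODE transcripts in the deposited transcript files (22 for NR4A1, 10 for NR4A2 and 4 for NR4A3), of which 9, 7 and 3 reached 1 estimated count over the libraries. Transcripts whose annotated 5′ starts lay within 500 bases of the next were put together as 1 start. The estimates are kallisto's division of shared reads, deposited without an error, so intervals below cover counting error and not that division. The smallest p of an exact permutation test at this number of libraries is 0.333, so the shares are described and not tested.

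For NR4A1 the largest part of the estimated counts in each brain library came from a start that had none in spleen. The fifth start of the gene, in 5′ to 3′ order (chromosome 12, 52051402 to 52051463), held 138 of the estimated counts in brain replicate 1 and 60.5 in brain replicate 2, mainly from the coding transcripts NR4A1-204 and NR4A1-203. It held 0 in both spleen libraries. Against a floor of 3 counts in each spleen library the brain estimates of this start were 26.2 times as high. That ratio counts no error on either side and is no lower bound. Since the gene was chosen for its rise in brain, it is a description only. Its share of the gene's estimated counts was 74.9% (95% Wilson interval 68.3% to 80.7%) in brain replicate 1 and 47.7% (38.8% to 55.9%) in replicate 2. With so few NR4A1 counts in spleen, the floor of 3 counts equals a share of 27.3% in spleen replicate 1 and 42.9% in replicate 2. The share in brain replicate 1 was far above both, and the interval of brain replicate 2 included the second. The Wilson upper limits in spleen were 25.9% and 35.4%, below the intervals of both brain libraries, for counting error only.

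The second start of NR4A1, further upstream (52037177 to 52037715), held most of the few spleen counts. Its estimated counts were 15.4 and 47.5 in brain and 9.84 and 6.20 in spleen. Most of these were assigned to the longer coding transcript NR4A1-206. Scaled by depth the start stood at 0.416 and 1.39 CPM in brain and 0.298 and 0.245 CPM in spleen, so that brain replicate 1 was close to the spleen libraries and brain replicate 2 was not. The brain libraries thus differed more from each other in the use of this start than in the level of the gene. NR4A1-206 and NR4A1-203 can be told apart by their 5′ ends: they hold 1155 and 277 stretches of 31 bases, 5′ of the first shared one, that the other lacks. NR4A1-204 held more of the fifth start's estimated counts (104 and 48.8 in brain) than NR4A1-203 (33.8 and 8.32). It was not compared with NR4A1-206 in this way.

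NR4A2 had reads from 2 main starts at both sites, and the order of their estimates was reversed between sites. In spleen replicate 2 that order was not separated. The 95% Wilson intervals of the shares there were 45.3% to 65.4% upstream and 33.6% to 53.6% downstream. The upstream start (chromosome 2, 156342348, transcript NR4A2-204) had 137 and 131 estimated counts in the brain libraries, and 85.7 and 49.6 in those of spleen. The downstream start (156332713 to 156332721, mainly NR4A2-201) had 385 and 220 in the brain libraries, against 54.3 and 38.6 in those of spleen. In CPM the upstream start was at 3.70 and 3.83 for brain against 2.60 and 1.96 for spleen, a ratio of means of 1.65. The downstream start was 10.4 and 6.43 CPM in brain and 1.65 and 1.53 CPM in spleen, a ratio of 5.30.

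In shares, the downstream start gave 71.1% (95% Wilson interval 67.2% to 74.8%) and 60.0% (55.0% to 65.0%) of the NR4A2 counts in brain. In spleen it gave 36.0% (28.6% to 43.7%) and 42.9% (33.6% to 53.6%). The intervals of the brain libraries lay above those of the spleen libraries, for counting error only. The difference in share of TPM, brain minus spleen, was 27.8 percentage points. NR4A2-201 also runs 661 bases further at its 3′ end than NR4A2-204, besides 242 stretches of 31 bases at the 5′ end that NR4A2-204 lacks. A change of start and a change of 3′ end can therefore not be told apart in these estimates.

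For NR4A3 the starts could not be separated from these files. The upstream start (chromosome 9, 99821855 to 99821885) had 17.7 and 15.3 estimated counts in brain and 0 in spleen, and the downstream start (99826727) had 44.3 and 20.7 in brain and 3 and 5 in spleen. NR4A3-201, the transcript of the downstream start, lies wholly within NR4A3-204 and holds 0 stretches of 31 bases of its own, so only reads of the upstream end are specific. Where spleen replicate 2 had a count of 0 among 5, the floor of 3 counts equals a share of 60.0%.

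**Figure D2:**
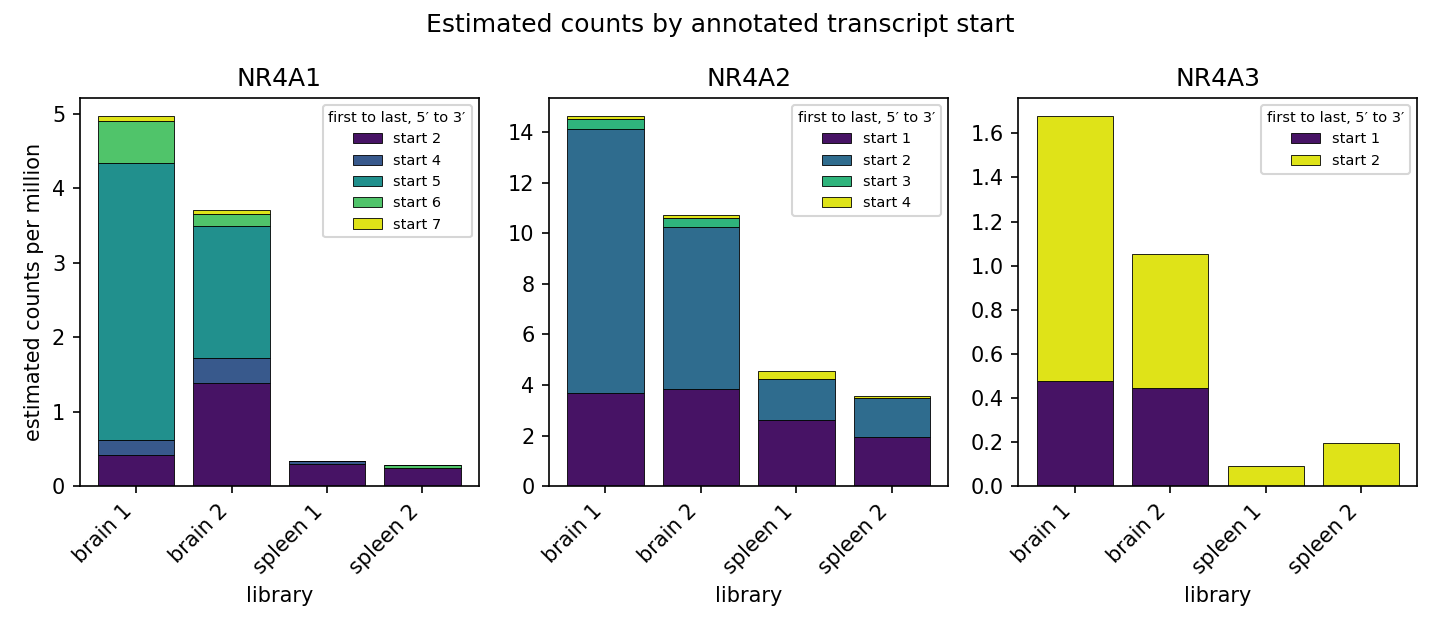
Estimated counts scaled to CPM of NR4A1, NR4A2 and NR4A3 in each library, stacked by annotated transcript start and numbered 5′ to 3′ along the gene; starts under 1 estimated count in total are left out. The fifth start of NR4A1 has estimated counts in brain only. The downstream start of NR4A2 (start 2) holds most of the difference in scaled estimates between sites. The upstream one (start 1) is between 1.96 and 3.83 CPM in all libraries. For NR4A2 a change of start and a change of 3′ end cannot be told apart.

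Promoter windows (250 bases before to 50 after a start) were matched in RefSeq's table for GRCh38.p14 for 2 of the 3 genes, NR4A1 and NR4A3, and not for NR4A2. They are shown because cAMP-responsive NR4A transcription is classically attributed to CREB, which binds the cAMP response element (CRE). The first is the window of the second NR4A1 start, which held most spleen counts (chr12:52037465-52037764, plus strand). The second is that of the upstream NR4A3 start (chr9:99821635-99821934, plus strand). Capitals mark the CRE core TGACG on either strand (CGTCA on the other).
NR4A1: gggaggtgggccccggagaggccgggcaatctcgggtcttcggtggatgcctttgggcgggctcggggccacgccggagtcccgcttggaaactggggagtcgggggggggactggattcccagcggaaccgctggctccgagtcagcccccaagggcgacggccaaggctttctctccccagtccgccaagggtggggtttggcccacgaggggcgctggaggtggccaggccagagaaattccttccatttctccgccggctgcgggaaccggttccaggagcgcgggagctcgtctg
NR4A3: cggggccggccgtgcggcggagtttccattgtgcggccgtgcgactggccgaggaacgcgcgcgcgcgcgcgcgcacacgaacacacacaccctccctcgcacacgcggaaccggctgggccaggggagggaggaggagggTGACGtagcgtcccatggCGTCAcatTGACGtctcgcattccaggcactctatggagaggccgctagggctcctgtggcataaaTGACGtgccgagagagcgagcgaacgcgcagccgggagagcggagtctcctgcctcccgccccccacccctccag
The fifth NR4A1 start, which led in brain, had no matched window. The NR4A3 window held 4 CRE cores, beginning 109, 91, 83 and 25 bases before the start, and the NR4A1 window held none. Among 35116 windows of the same length, 24.6% held at least 1 CRE core and 0.313% held 4 or more. At least 1 core was in the windows of 39.4% of tested genes and of 38.1% of genes higher in brain. The whole palindrome TGACGTCA was in neither window and in 1.85% of all windows. These are matches of letters and say nothing of binding in these cells.

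The receptors' own response element, the NBRE, was searched as AAAGGTCA on both strands (TGACCTTT on the other). It was in neither of these windows. It was found in the windows of 1.14% of 11487 tested genes with a window, and of 1 of 197 genes that were higher in brain.

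Among the 31 of 48 human nuclear receptors that were tested, NR4A1, NR4A3 and NR4A2 held places 1, 2 and 4 by log2 fold change, which their choice favours. Of the other 45 receptors 28 were tested, and 1 rose (3.57%, against 1.63% of all tested genes), 0 fell and 27 did not pass. Their median log2 fold change was 0.00, against 0.04 over all tested genes, and 14 of 28 were positive. With the replicate number as a block 2 rose and 0 fell, where 7.48% of all tested genes rose and 3.37% fell. The receptor that rose was RORA, known for its part in the circadian clock and in lymphoid development. It had 4.81 and 5.15 CPM in brain and 1.24 and 1.35 CPM in spleen, and its log2 fold change was 1.94 ± 0.26 (SE; edgeR adjusted p = 0.0163). That call ended after removal of each library's trend with GC content and length (log2 fold change 1.45, adjusted p = 0.0516).

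By TPM the NR4A genes were of middle to low rank in the superfamily. NR4A2 stood at place 15 of 48 in brain and 19 in spleen. Its brain libraries (6.73 and 5.00 TPM) overlapped those of NR1D1 (7.23 and 6.31 TPM), VDR (5.62 and 5.53 TPM) and RORB (5.50 and 5.60 TPM), so that these neighbours were not separated. NR4A1 was at place 20 in brain, with 2.90 and 2.57 TPM, clear of HNF4G above it (4.52 and 3.99 TPM) and of RXRA below it (1.93 and 0.990 TPM). In spleen NR4A1 was at place 28, with 0.144 and 0.130 TPM, inside the range of ESRRB (0.162 and 0.118 TPM). NR4A3 was at place 26 in brain (0.475 and 0.286 TPM), overlapping NR3C2 (0.540 and 0.301 TPM), and at place 36 in spleen. The most abundant receptors were NR3C1, the glucocorticoid receptor (mean 54.2 TPM in brain, 31.8 TPM in spleen), RXRB and NR1H2, and none of these passed the test.

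**Figure D3:**
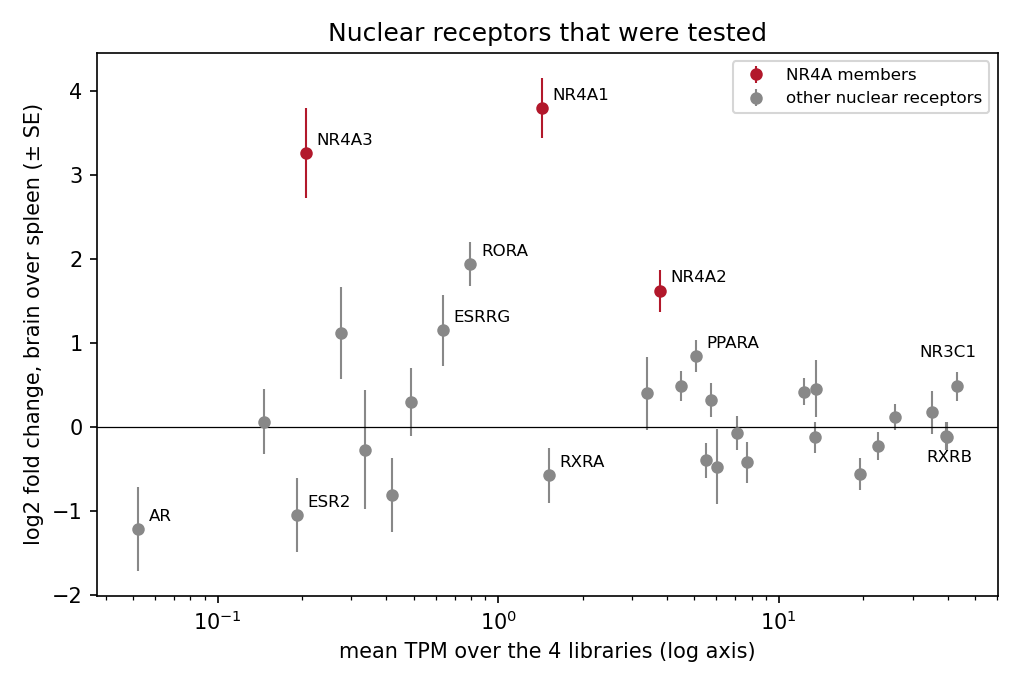
Log2 fold change of brain over spleen (± SE) against mean TPM over the 4 libraries (log axis) for the 31 nuclear receptors that were tested; NR4A members in red, others in grey. NR4A1 (3.80) and NR4A3 (3.26) lie above the other receptors, and NR4A2 (1.63) lies near RORA (1.94).

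The retinoid X receptors, the dimer partners of NR4A1 and NR4A2, did not pass the test. RXRB, the main form here, had 66.4 and 67.7 CPM in brain and 62.1 and 82.5 CPM in spleen (log2 fold change -0.11 ± 0.17, SE). RXRA had 5.22 and 2.69 CPM in brain and 5.94 and 5.82 CPM in spleen (-0.57 ± 0.33). RXRG was not tested, being near 0. Of 12 partners and cofactors 11 were tested, and 0 rose and 0 fell by edgeR and also with the block, with a median of -0.13. The 2 of highest level were TRIM28, a corepressor scaffold (log2 fold change -0.32 ± 0.16), and CTNNB1, beta-catenin (-0.17 ± 0.13).

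Upstream of the NR4A genes lie CREB and its CRTC coactivators, MEF2 factors with their class IIa histone deacetylases, calcineurin with NFAT, and NF-kB. Of 21 such regulators, all tested, 1 rose (4.76%, against 1.63% of all tested genes), 0 fell and 20 did not pass, with a median of 0.12. With the block 2 rose, against 7.48% of all tested genes. The one that rose was NFATC2, a calcium-responsive factor of lymphocytes. It had 27.4 and 18.6 CPM in brain and 7.98 and 10.1 CPM in spleen, and its log2 fold change was 1.35 ± 0.24 (SE; edgeR adjusted p = 0.0384). With brain replicate 1 left out it did not pass (adjusted p = 0.0924), nor with a stricter filter of 1 CPM in all 4 libraries (adjusted p = 0.0677). CREB1 had a log2 fold change of 0.47 ± 0.28 and MEF2D one of 0.13 ± 0.15.

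Other immediate early genes, which respond to many of the same signals, rose in part. Of 36 listed 30 were tested, and 5 rose (16.7%, against 1.63% of all tested genes), 0 fell and 25 did not pass, with a median of 0.39. With the block 8 rose, against 7.48% of all tested genes. With the stricter filter 0 of 26 passed by edgeR, against 0.851% of all genes tested there that rose. FOS, an AP-1 subunit, had 56.8 and 34.1 CPM in brain and 14.7 and 15.6 CPM in spleen, and rose by 1.59 ± 0.26 (log2, SE, adjusted p = 0.0363). It did not pass with spleen replicate 1 left out (adjusted p = 0.329), nor with spleen replicate 2 left out (adjusted p = 0.380). JUN, its partner, rose by 1.51 ± 0.26 (adjusted p = 0.0367). DUSP1, a phosphatase that shuts off MAP kinases, rose by 1.15 ± 0.22 (adjusted p = 0.0454), and BTG2, an antiproliferative factor, by 1.12 ± 0.20 (adjusted p = 0.0377). PPP1R15A, a phosphatase subunit of the stress response, was the fifth and rose by 0.88 ± 0.17 (adjusted p = 0.0437). With brain replicate 1 left out BTG2 and PPP1R15A did not pass (adjusted p = 0.162 and 0.335), and PPP1R15A did not pass with brain replicate 2 left out either (adjusted p = 0.0925).

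Among those that did not pass was EGR1, a zinc-finger factor induced by MAP kinase signalling. It had 31.1 and 13.0 CPM in brain and 4.34 and 1.70 CPM in spleen, and its log2 fold change was 2.85 ± 0.72 (SE; adjusted p = 0.168). Replicate 1 was above replicate 2 at both sites, and with the replicate number as a block EGR1 passed (edgeR adjusted p = 2.1e-23). With 4 libraries that fit leaves little freedom per gene, so this p rests mainly on spread shared across genes. Over all genes, deviations of same-numbered libraries correlated at only 0.0299. JUNB had 39.7 and 28.0 CPM in brain and 23.3 and 26.6 CPM in spleen (0.44 ± 0.21, adjusted p = 0.272). The list was therefore mixed, with log2 fold changes from -0.47 to 2.85. NR4A1 (3.80) and NR4A3 (3.26), chosen for being higher in brain, lay above this range and NR4A2 (1.63) within it. Without spleen replicate 1 EGR1 (3.64) was above NR4A3 (2.71).

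Of 12 genes tied to cAMP and CREB 11 were tested, and 3 rose (27.3%, against 1.63% of all tested genes), 0 fell and 8 did not pass, with a median of 0.94. With the block 7 rose, against 7.48% of all tested genes. RGS2, an inhibitor of G protein signalling, had 27.6 and 22.7 CPM in brain and 5.94 and 4.95 CPM in spleen (log2 fold change 2.20 ± 0.20, SE, adjusted p = 0.00327). PDE4A, a phosphodiesterase that breaks down cAMP, had 1.89 and 1.46 CPM in brain and 0.425 and 0.317 CPM in spleen (2.15 ± 0.39, adjusted p = 0.0397). Its call ended without brain replicate 1 (adjusted p = 0.0578). DUSP1, named above, was the third. CREM, a CREB relative, had a log2 fold change of -0.03 ± 0.18.

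Genes linked to NR4A action in lymphocytes and leukaemia mostly did not pass the test. Of 21 listed 14 were tested, and 2 rose (14.3%, against 1.63% of all tested genes), 0 fell and 12 did not pass, with a median of 0.33. With the block 5 rose and 1 fell, against 7.48% and 3.37% of all tested genes. IRF4, a factor of activated B cells, had 30.1 and 25.8 CPM in brain and 5.55 and 6.45 CPM in spleen (log2 fold change 2.22 ± 0.19, SE, adjusted p = 0.00244). CD86, a costimulatory ligand, had 17.3 and 12.6 CPM in brain and 4.00 and 4.79 CPM in spleen (1.77 ± 0.24, adjusted p = 0.0155). In mouse B cells NR4A1 is known to restrain CD86, BATF and MYC. BATF had 7.84 and 6.12 CPM in brain and 13.4 and 12.2 CPM in spleen. Its log2 fold change was -0.87 ± 0.21 (adjusted p = 0.0839), and it passed as lower with the block (adjusted p = 0.0109). MYC had a log2 fold change of 0.13 ± 0.14 (adjusted p = 0.632), and of -0.011 with gene sums of the transcript files. PDCD1, LAG3 and FASLG, T-cell genes tied to NR4A, were at 0 counts in all libraries.

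Heat shock genes, which like immediate early genes respond to handling of cells, were counted beside these lists. Of 12, all tested, 1 rose (8.33%, against 1.63% of all tested genes), 0 fell and 11 did not pass, with a median of 0.15. With the block 3 rose, against 7.48% of all tested genes. The one that rose was HSPA6, a strictly inducible chaperone. It had 13.1 and 10.7 CPM in brain and 2.94 and 1.98 CPM in spleen (log2 fold change 2.26 ± 0.27, SE, adjusted p = 0.00956). HSPA1A had 122 and 160 CPM in brain and 41.0 and 81.9 CPM in spleen (1.20 ± 0.38, adjusted p = 0.197). HSPA1B had 145 and 223 CPM in brain and 48.7 and 138 CPM in spleen (0.98 ± 0.64, adjusted p = 0.474). Of the 12 log2 fold changes 7 were positive, and the lowest was -0.59. The summed level of the list was 6768 and 7737 CPM in brain and 7794 and 7851 CPM in spleen. Its largest parts were HSPA8, HSP90AA1 and HSP90AB1, so the sum says little of the less abundant members. The part of sample handling in the NR4A levels was not tested.

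**Figure D4:**
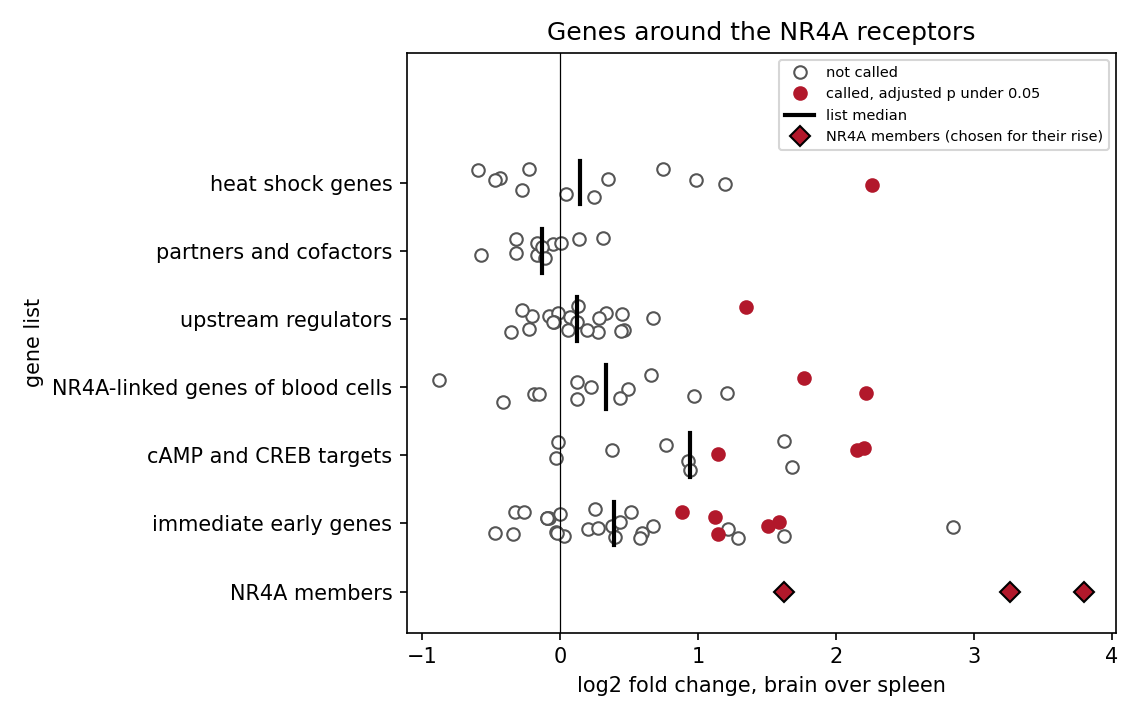
Log2 fold changes of brain over spleen for the tested genes of 6 lists around the NR4A receptors, 1 circle per gene (vertical scatter has no meaning), filled where called with an adjusted p under 0.05; bars are list medians and diamonds the 3 NR4A genes. The cAMP and CREB list has the highest median (0.94) and partners and cofactors the lowest (-0.13).

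Profiles over the 4 libraries most like those of the members were found by the Euclidean distance between log2 CPM values centred on each gene's mean. This is a description over 4 points, and low-count genes resemble each other easily. Nearest to NR4A1 were STON1-GTF2A1L, ALDOC, RGS13, BHLHE40 and PPFIA4, at distances of 0.175 to 0.596. Nearest to NR4A3 were LRRC14B, CCL25, NCKAP5, ITGA6-AS1 and VEGFA (0.222 to 0.541), and nearest to NR4A2 were GPSM1, SERPINB9P1, SMG1P1, IGHV5-78 and CHMP3-AS1 (0.111 to 0.146). The distance between NR4A1 and NR4A3 was 1.06, that between NR4A2 and NR4A3 was 1.67 and that between NR4A1 and NR4A2 was 2.07.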

How the data were processed

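Libraries were made from total RNA with a stranded mRNA kit, per the labels' protocols. The tools named per the submitters' processing notes are kallisto 0.42.4, cutadapt 1.5, bcl2fastq 1.8.4 and DESeq2, with the builds GRCh38 and GRCm38. No annotation release, setting or strand option is given in the sources used here. The authors deposited estimated counts and TPM per transcript, over human and mouse transcripts together, and a table of whole-number gene counts. Of genes over 50 counts, 74.2% to 74.8% per library equalled the sum of their transcripts' estimated counts within 1 count. In all, 2 columns of the deposited tables matched no sample and were not used, nor were the regularised log values.

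Identifiers were matched to GENCODE release 44 (56322 of 65217). Of the 36 member transcripts 33 had the length given there. Brain was compared with spleen by edgeR 4.0.16 (quasi-likelihood, robust, TMM, filterByExpr; R 4.3.3) over 17075 genes, with Benjamini-Hochberg adjustment at 0.05. The replicate number marks an occasion in the labels and was taken to pair libraries in an alternative fit. Deviations of same-numbered libraries correlated at 0.0299 across genes, which are not replicates. The p-values measure the spread between pooled libraries of the 2 occasions, not between mice. With the block little freedom is left per gene, and its p-values rest mainly on spread shared across genes. On simulated counts of 17075 genes with 200 changed 4-fold, 100% were recovered and 2.44% of calls were false. The simulation gave every gene and library the same dispersion and changed only genes with a mean of at least 1 CPM. In the real counts the mean chi-square per gene between replicates was 9.35 in brain and 64.1 in spleen. The simulated rates therefore check the code and do not apply to these libraries. The named genes were those of the rule fixed in the design: the members, up to 4 called genes (or 2 of highest level) per list, RXRA, RXRB, MYC, BATF, FOS, EGR1 and JUNB, and the 5 nearest profiles. CREB1, MEF2D, CREM, PPP1R15A, HSPA1A, HSPA1B, HSPA8, HSP90AA1, HSP90AB1, TRAC, PDGFRB, PECAM1, CD22, CD34, other receptors and the genes at 0 were added after their values were seen. So were PAX5, DNTT, SYT1, MBP, GFAP, MOG, RBFOX3, AQP4, CSF1R, AIF1 and TMEM119. The members and lists were chosen with earlier results of these data known. Alternatives were RLE factors, DESeq2 1.42.0, other filters, the block, GC and length offsets, transcript sums and leaving out each library.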

Additional observations from a re-analysis of the deposited data

How the results depend on the processing

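The log2 fold changes of NR4A1, NR4A2 and NR4A3 were positive under every alternative that tested them, and leaving out 1 library gave 3.57 to 4.00, 1.38 to 1.84 and 2.71 to 3.87. From TPM the NR4A1 value was 4.32. The stricter filter left NR4A1 and NR4A3 untested, and NR4A2 was then not called. The share of TPM from the leading brain start, brain minus spleen in percentage points, was 51.1 to 70.6 for NR4A1, 21.1 to 34.4 for NR4A2 and -39.1 to -31.1 for NR4A3 with 1 library left out. The NR4A1 and NR4A3 ranges do not measure certainty, because few spleen counts fixed those shares at 0% and 100%. The floor of 3 counts equals 27.3% and 42.9% in spleen for the fifth NR4A1 start, and 100% and 60.0% for the upstream NR4A3 start. The NR4A3 starts could also not be separated.

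Counts of calls depended on the processing, and the cause was not tested. Genes tested numbered 17075, but 34540 with no filter, 12684 with the stricter filter and 16838 with transcript sums. All genes called numbered 345, and were 957 by DESeq2 (560 higher, 397 lower), 2123 with no filter (1269, 854), 124 with the stricter filter (108, 16), 1853 with the replicate block (1278, 575), 614 with the GC and length trend removed (441, 173) and 1788 with that and the block (1042, 746). Called nuclear receptors other than NR4A were 2, 4, 0 and 4 by DESeq2, with no filter, with the trend removed and with that and the block, and 2 with the block or with transcript sums. The number tested was 28 (38 with no filter), and of the 4 in either case 1 was lower. Upstream regulators gave 3 with no filter, 0 with the stricter one and 2 with the block, of 21 tested. NR4A-linked genes gave 6 with no filter, with the block and with trend removal and block, 1 of them lower each time, of 14 tested (18 with no filter). Immediate early genes gave 8 by DESeq2, 9 with no filter, 0 with the stricter filter, 8 with the block and 10 with trend removal and block. cAMP and CREB targets gave 5, 7, 1, 7 and 6 in that order. Tested were 30 and 11 (35 and 12 with no filter, 26 and 8 with the stricter one). Heat shock genes gave 2 by DESeq2, 4 with no filter (2 lower), 3 with the block and 5 with trend removal and block (2 lower), of 12 tested. Partners and cofactors gave 1 with transcript sums, of 11 tested. All other calls of these lists named in this paragraph were higher in brain.

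Without 1 library, the lone one of a site being assumed to vary like the others, all calls ranged from 404 to 6807 (551 without brain replicate 2, 6807 without spleen replicate 1, 3128 without spleen replicate 2). Other nuclear receptors ranged from 1 to 15, upstream regulators from 0 to 13, partners from 0 to 6, NR4A-linked genes from 2 to 9, immediate early genes from 5 to 16, cAMP and CREB targets from 3 to 7 and heat shock genes from 1 to 6. Each highest value came without spleen replicate 1, where 17971 genes were tested. These values take calls in either direction together. Without spleen replicate 1 the calls of every list went both ways, except those of cAMP and CREB targets, which were all higher in brain. More calls were lower than higher there for partners, for heat shock genes and, by a small margin, over all genes.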
